A study of Mus musculus with 5 samples.

Results

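Foxa1, Foxa2, Foxa3, Sox17, Sox7, Gata4, Gata6 and Hnf4a are genes of transcription factors that specify and maintain the endoderm, and they were followed through a differentiation of mouse embryonic stem cells towards the pancreas with and without MPA. They were selected by symbol. All 8 were on the array, out of 18193 genes, with 16 of its 45101 probe sets that the platform annotation gives to 1 symbol alone. The brightest probe set of a gene, by mean signal, is taken as the main one, and 5 of the 8 genes have further ones.

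The groups were day 6 with MPA, day 8 with MPA, and untreated cells at day 5, day 6 and day 8, which serve as controls. MPA, a compound the labels do not spell out, was given at 2 µM from day 5, so that exposure had lasted 1 day at day 6 and 3 days at day 8. All cells were grown on gelatin-coated plates. The stem cell line is not given in the sources used here. Each group was measured on 1 array, so no value has a replicate error and no pair of arrays can be tested. Precision is limited by the number of arrays. RNA came from whole cultures, in which fewer cells of a type and less RNA per cell cannot be told apart.

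The signal is a linear array intensity scaled by the authors. Signals under 86.8, the median of all probe sets other than controls, were raised to that value, called the floor, before a log2 difference was taken. Where 1 array of a pair was at the floor, its fold is a bound from below, marked "at least". A probe set for a bacterial RNA that the cells lack reached 59.4, so signals around the floor are close to that of an absent target. Of the non-control probe sets, 46.7% to 51.9% lay above the floor on an array. The 3′ over 5′ ratio of Gapdh, which grows as RNA is less intact, was 1.31 with MPA and 1.19 in the control at day 6, 1.57 with MPA and 1.55 in the control at day 8, and 1.08 at day 5. The same ratio of beta-actin was 3.06 with MPA and 3.04 in the control at day 6. It was 2.71 with MPA and 2.81 in the control at day 8, and 2.08 at day 5. Both ratios were lowest at day 5, so comparisons with day 5 set arrays of unlike ratios side by side. The pluripotency gene Pou5f1 stood at 7598 at day 5, and at day 8 at 56.4 with MPA and 95.95 in the control. Pdx1, the defining factor of the pancreatic anlage, was under 5 on the arrays of days 5 and 6, and at day 8 it had a signal of 90.4 with MPA and 78.6 in the control, values around the floor.

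In the embryo, Foxa proteins bind DNA through a forkhead domain and, as pioneer factors, can engage closed chromatin at regulatory regions of gut, liver and pancreas genes. Sox17 and its relative Sox7 carry an HMG box, and Sox17 is needed for the definitive endoderm and is also used by endothelium and primitive endoderm. Gata4 and Gata6 are zinc finger factors of endoderm and heart, and Hnf4a is a nuclear receptor that drives liver, intestinal and yolk sac genes. Foxa2 is also made in the node, notochord and floor plate.

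Foxa1 and Foxa2 were both higher with MPA on both days and had the largest mean differences of the 8 genes, so the stretch before their transcription starts is shown. RefSeq promoter windows (GRCm38.p6) were given for 4 of the 8 genes, Foxa1, Foxa2, Foxa3 and Hnf4a. The 250 bases before the annotated start of Foxa1 lie on the minus strand at chr12:57546112-57546361, and those before the most upstream of the 3 annotated starts of Foxa2 on the minus strand at chr2:148046970-148047219. Capitals mark matches, on either strand, to 4 short words: TGTTTAC as the core bound by forkhead factors, ACAANG as that of SOX factors, AGATAA as that of GATA factors and GTTAAT as one arm of the HNF1 site.
Foxa1: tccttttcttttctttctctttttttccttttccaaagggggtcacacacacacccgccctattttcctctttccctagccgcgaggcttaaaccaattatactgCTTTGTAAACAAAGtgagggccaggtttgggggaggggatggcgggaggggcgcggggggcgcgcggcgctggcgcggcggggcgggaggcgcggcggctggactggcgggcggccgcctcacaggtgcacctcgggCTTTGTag
Foxa2: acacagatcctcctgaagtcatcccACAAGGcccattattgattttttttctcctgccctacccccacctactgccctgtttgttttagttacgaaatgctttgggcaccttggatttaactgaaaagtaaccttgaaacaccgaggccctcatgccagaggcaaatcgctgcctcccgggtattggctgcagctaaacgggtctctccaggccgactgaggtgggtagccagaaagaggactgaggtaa

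The Foxa1 window held 1 forkhead match, at bases -141 to -135 from the start, and 3 SOX matches, of which those at -145 to -140 and -137 to -132 overlap the forkhead match on its flanks. This Foxa2 window held 1 SOX match, at -225 to -220, and no other. Of all 32851 windows of the same length, 3.17% held the forkhead word, 36.3% the SOX word, 9.99% the GATA word and 6.43% the HNF1 word. In the windows not shown, Foxa3 had 1 SOX match, the upstream start of Hnf4a 1 GATA match and its downstream start 2 HNF1 matches. The second start of Foxa2 had 0 matches and the third 1 each of SOX, GATA and HNF1. Such matches describe letters and do not show binding.

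The genes differed in how bright their probe sets were. Foxa1, Foxa2, Sox17 and Gata6 lay above the floor on all 5 arrays, each with a signal over 1000 on some of them. Foxa3, Sox7, Gata4 and Hnf4a stayed under 300 on every array, and each was at or below the floor on at least 1 of them. Differences of these dim genes are mostly small steps around the floor.

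**Figure D1:**
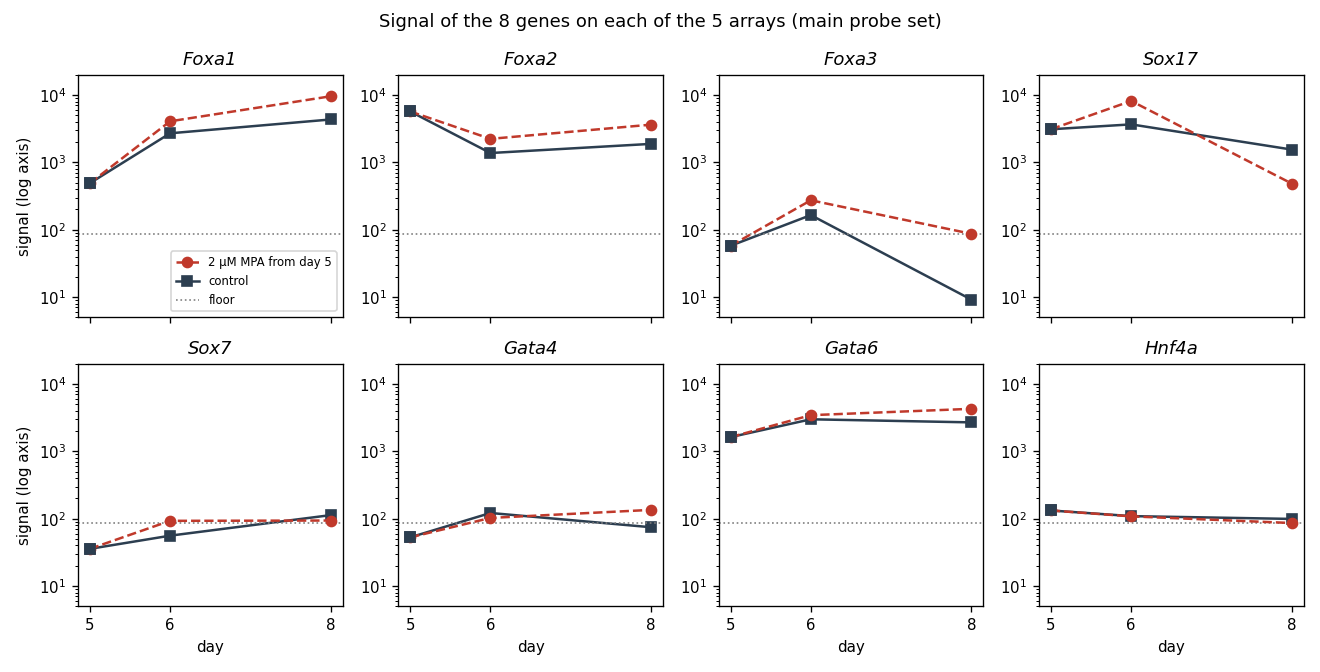
Array signal (log axis) of the main probe set of each gene at days 5, 6 and 8, with 2 µM MPA from day 5 (red circles, dashed) and in controls (dark squares, solid); both lines start from the shared untreated day 5 array, each point is 1 array, and the dotted line is the floor of 86.8. Foxa1, Foxa2, Sox17 and Gata6 stay above the floor throughout, and the Sox17 lines cross between day 6, with 8178 under MPA and 3670 in the control, and day 8, with 485 under MPA and 1550 in the control.

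Foxa1, a pioneer factor of foregut and other epithelia, had a signal of 489.7 at day 5, 4076 with MPA and 2705 in the control at day 6, and 9593 with MPA and 4339 in the control at day 8 (1 probe set). The signal was lowest at day 5 and highest with MPA at day 8. Both MPA arrays lay above the control array of their day. The excess with MPA was 1.51-fold at day 6 and 2.21-fold at day 8, log2 differences of 0.59 and 1.14. Of all measured genes, 87.5% had a lower log2 difference at day 6 and 97.5% at day 8.

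Foxa2, the Foxa factor of the anterior primitive streak, node and definitive endoderm, had a signal of 5711 at day 5, 2236 with MPA and 1378 in the control at day 6, and 3635 with MPA and 1884 in the control at day 8 (1 probe set). Unlike Foxa1, it was highest at day 5, and it was lowest in the day 6 control. The difference with MPA had the same sign as for Foxa1. With MPA the signal was above the control by 1.62-fold at day 6 and by 1.93-fold at day 8, log2 differences of 0.70 and 0.95, and the second is just short of 2-fold.

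Foxa3, which acts mostly in liver and gut later than the other Foxa genes, was dim. Its signal was 57.7 at day 5, 274 with MPA and 165 in the control at day 6, and 86.95 with MPA and 9.16 in the control at day 8 (1 probe set). The arrays of day 6 were the only pair clearly above the floor, and there the signal was 1.66-fold higher with MPA. At day 8 the MPA array barely exceeded the floor and the control array was below it, so no fold is read.

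Sox17 differed most between the days. Its main probe set read 3104 at day 5, 8178 with MPA and 3670 in the control at day 6, and 485 with MPA and 1550 in the control at day 8. The array with MPA was the highest of all 5 at day 6 and the lowest of all 5 at day 8. With MPA Sox17 was 2.23-fold higher at day 6 (log2 difference 1.16) and 3.20-fold lower at day 8 (log2 difference -1.68). At day 8 only 0.659% of measured genes had a lower log2 difference.

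The other probe set of Sox17 gave the same order at lower signal, with 805 at day 5, 1511 with MPA and 906 in the control at day 6, and 129 with MPA and 351 in the control at day 8. Its log2 differences between MPA and control were 0.74 at day 6 and -1.44 at day 8, so the difference at day 6 was under 2-fold there. The name of the main probe set ends in _x_at, a suffix for sets whose probes may also match other sequences, and that of the other in _a_at, for sets that match several transcripts of 1 gene.

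Sox7, which acts with Sox17 in endothelium and primitive endoderm, had 35.6 at day 5, 92.9 with MPA and 55.9 in the control at day 6, and 93.8 with MPA and 113 in the control at day 8. These values lie around the floor, and its other probe set was below the floor on all 5 arrays. Log2 differences with MPA were 0.10 at day 6 and -0.27 at day 8.

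Gata6, which acts early in primitive and definitive endoderm and in the pancreatic anlage, had 1626 at day 5, 3447 with MPA and 2993 in the control at day 6, and 4282 with MPA and 2692 in the control at day 8. The day 5 array was lowest and the array with MPA at day 8 highest. Its main probe set was above the control with MPA by 1.15-fold at day 6 and by 1.59-fold at day 8, log2 differences of 0.20 and 0.67.

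A second probe set of Gata6 showed larger differences, 593 with MPA and 409 in the control at day 6 and 829 with MPA and 398 in the control at day 8, against 415 at day 5. They come to log2 differences of 0.54 and 1.06. The third was under the floor on 3 of the 5 arrays, with 76.6 with MPA and 169.6 in the control at day 6 and 58.5 with MPA and 102 in the control at day 8, and so went the other way. The level of Gata6 over time also depends on the probe set: between day 5 and the day 6 control the main set differed by a log2 of 0.88 and the second by -0.02.

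**Figure D2:**
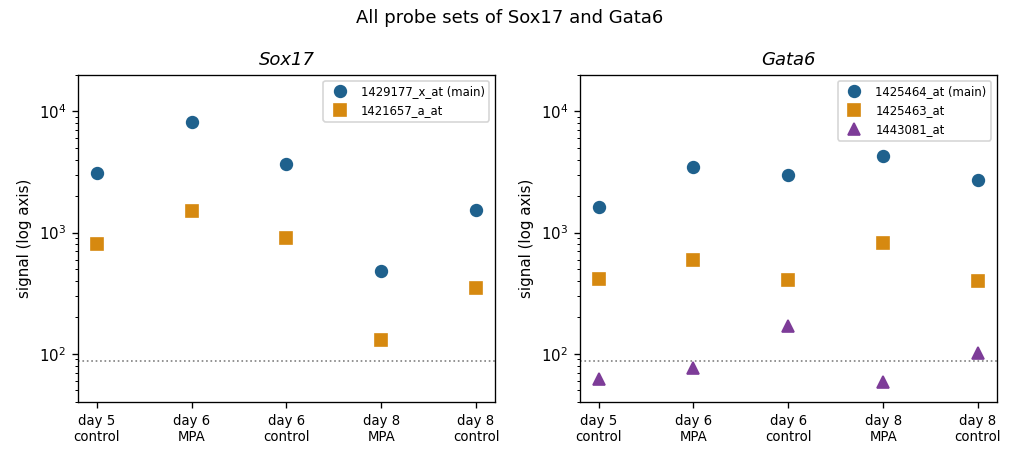
Signal (log axis) of every probe set of Sox17 (2 sets) and Gata6 (3 sets) on the 5 arrays, 1 point per array, with the floor of 86.8 dotted. The Sox17 sets share 1 order of the arrays, while the dimmest Gata6 set is lower with MPA than in the control at both days and the other Gata6 sets are higher.

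Gata4, used by cardiac mesoderm and by foregut and yolk sac endoderm, had 52.8 at day 5, 103 with MPA and 121 in the control at day 6, and 135 with MPA and 74.6 in the control at day 8, and its second probe set was below the floor on all 5 arrays. Hnf4a, the nuclear receptor of liver and visceral endoderm, had 132 at day 5, 108 with MPA and 109 in the control at day 6, and 86.2 with MPA and 99.1 in the control at day 8. Its other 3 probe sets were below the floor on every array. Neither gene was 2-fold apart between MPA and control at either day.

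In the comparison of MPA with control at day 6, 1 of the 8 genes was at least 2-fold apart, Sox17, which was higher. The share among all 12240 measured genes was 7.17% (877 genes), and 3.01% among the 4286 with a mean signal of 1000 or more in the pair, a level chosen after the values were seen. The median log2 difference of the 8 was 0.40, against 0.02 over all measured genes. At day 8, Foxa1 was higher and Sox17 lower by 2-fold, 2 of the 8 genes, where 6.91% of 12599 measured genes were apart by as much, and 3.25% of the 4277 bright ones. The median of the 8 was 0.32, against -0.02 over all. With 8 genes these shares rest on 1 or 2 of them.

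**Figure D3:**
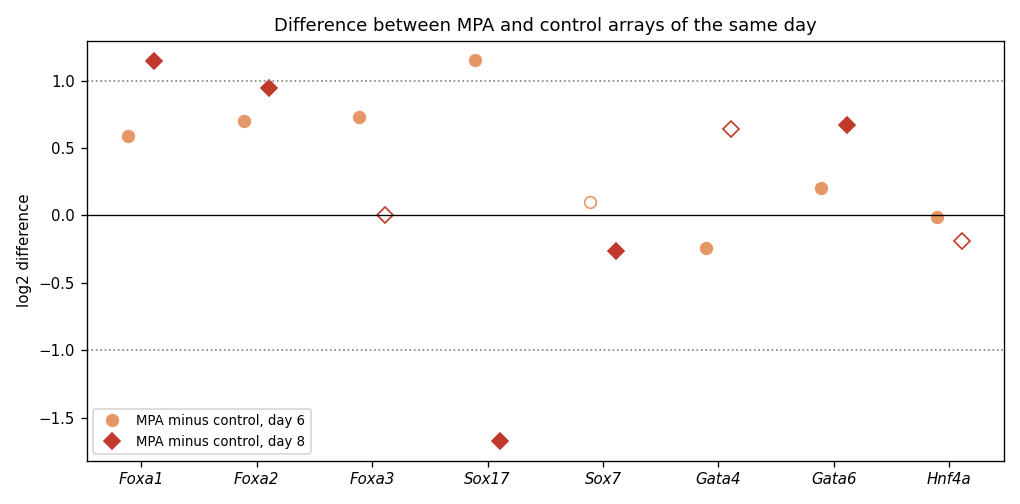
Log2 difference of MPA minus control at day 6 (orange circles) and day 8 (red diamonds) for each gene; open symbols mark pairs with 1 array at the floor, where the size is a lower bound, and dotted lines mark 2-fold. On these main probe sets Foxa1, Foxa2 and Gata6 lie above 0 at both days, and Sox17 lies at 1.16 at day 6 and -1.68 at day 8.

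The arrays of days 6 and 8 were also fitted together in limma, with terms for the day and for MPA, which asks for a difference that is alike at both days. It leaves 1 residual degree of freedom, and its error comes from the disagreement between the days, not the spread between cultures. The fit also draws the error of each gene towards that of genes of like signal. SEs and p-values of limma therefore rest largely on other genes, and not on a gene's own agreement between the days alone. Of the 8 genes, 0 had a Benjamini-Hochberg adjusted p under 0.05, where 0.00862% of 11599 genes did (1 gene). At an unadjusted p under 0.05 there were 2 of the 8, Foxa1 and Foxa2, where 6.37% of all genes passed. For Foxa1 the mean log2 difference was 0.87 (SE 0.20, unadjusted limma p 0.0023, adjusted p 0.49, higher at both days). For Foxa2 it was 0.82 (SE 0.22, unadjusted limma p 0.0044, adjusted p 0.57, higher at both days). Gata6 followed with 0.44 (SE 0.21, adjusted limma p 0.80). For Sox17, whose signs opposed each other, the mean was -0.26 with an SE of 0.92 (adjusted limma p 0.98). Whether the MPA difference of a gene changed between the days has no test, since a term for it would use up the last degree of freedom.

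Without MPA, the genes went separate ways over time. From day 5 to day 6, Foxa1 was 5.52-fold higher and Foxa2 4.15-fold lower. They were the 2 of 7 measured genes that were 2-fold apart, against 9.86% of all measured genes. Gata6 was 1.84-fold higher and Sox17 1.18-fold higher. From the day 6 to the day 8 control, Foxa1 and Foxa2 were 1.60-fold and 1.37-fold higher and Sox17 2.37-fold lower, the 1 gene of 8 that was 2-fold apart (13.5% of all). For day 8 against day 5 these steps add up to 8.86-fold higher for Foxa1, 3.03-fold lower for Foxa2 and 2.002-fold lower for Sox17, which made 3 of 6 measured genes (16.9% of all). Sox17 lies at the 2-fold line there.

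Under MPA the step from day 6 to day 8 was larger for Sox17. Its signal was 16.9-fold lower at day 8 than at day 6 with MPA (log2 difference -4.08), against 2.37-fold lower in the controls, and 0.0653% of measured genes had a lower log2 difference. Foxa1 was 2.35-fold higher and Foxa2 1.63-fold higher. Foxa3 was 3.15-fold lower, a value close to a bound, since its day 8 signal of 86.95 barely exceeded the floor. These made 3 of 8 genes that were 2-fold apart, Foxa1, Foxa3 and Sox17, where 15.3% of all measured genes were.

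**Figure D4:**
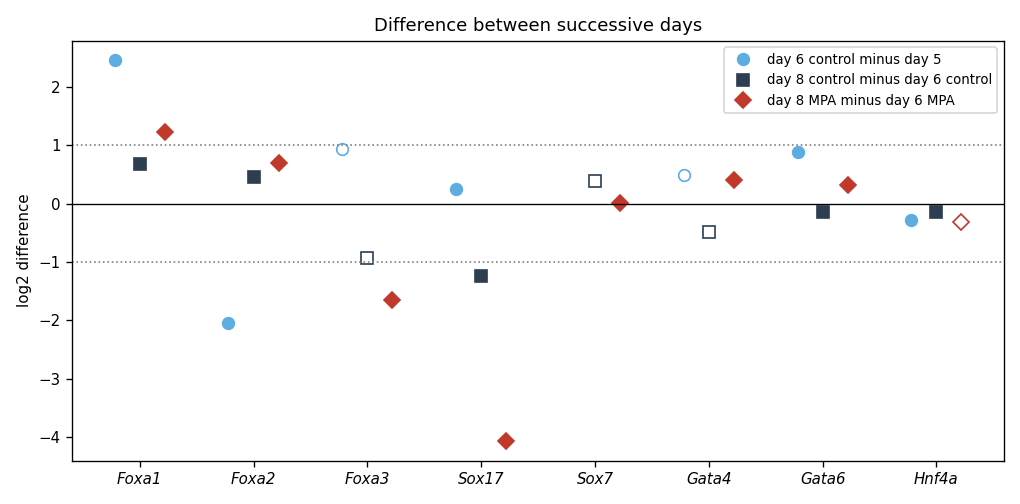
Log2 difference between successive days for each gene, for the day 6 control minus day 5 (light blue circles), the day 8 control minus the day 6 control (dark squares) and day 8 minus day 6 with MPA (red diamonds); open symbols have 1 array at the floor, genes at the floor on both arrays are not drawn, and dotted lines mark 2-fold. Foxa1 at 2.47 and Foxa2 at -2.05 lie on opposite sides of 0 for day 6 against day 5, and Sox17 with MPA at -4.08 is the lowest point.

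To show what else shares these time courses, the mean-centred log2 profiles of 12080 genes over the 5 arrays were compared by their root mean square difference, where 0 is an identical shape. The 3 genes closest to Foxa1 were Phlda1 (0.10), the simple-epithelial keratin gene Krt7 (0.12) and Osr1 (0.14), a zinc finger factor gene, and 5 genes lay within 0.25. Foxa2 also had 5 genes within 0.25, the closest being Prkaa2 (0.20), Kcnq3 (0.23) and Tdrd5 (0.23). The profile of Sox17 had 0 genes within 0.25, and its closest were Gpt (0.26), of an aminotransferase, Has2 (0.40), of a hyaluronan synthase, and Cd40 (0.43). Gata6, whose signal lay between 1626 and 4282, had 300 genes within 0.25, the closest being Sos2 (0.043), Cd151 (0.057) and Agtpbp1 (0.057). Among the bright genes themselves the differences ran from 0.99, between Foxa1 and Gata6, to 2.39, between Foxa1 and Sox17, and Foxa1 and Foxa2 stood 1.87 apart. Parts of these likenesses were set by the floor: Kcnq3 was below it on 3 of the 5 arrays, down to 7.91 with MPA at day 6, Osr1 at day 5, and Gpt and Cd40 at day 8 with MPA. With 5 arrays such likeness is a description.

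Genes of the Nodal pathway and mesendoderm were mostly lower at day 8 than at day 5 in the controls. Nodal and its mesendoderm genes had a median log2 difference of -3.33 at day 8 against day 5, against 0.04 over all measured genes, with 10 of 13 measured genes 2-fold lower and 0 2-fold higher. Nodal, the ligand that induces endoderm, was 43.8-fold lower, its co-receptor gene Tdgf1 at least 191-fold and the antagonist gene Lefty1 at least 129.8-fold, while the signal transducer gene Smad2 was 1.48-fold higher. At day 6 against day 5 the median was -0.27, with 2 of 13 2-fold higher and 6 2-fold lower. Nodal was 1.53-fold higher there, Lefty1 2.29-fold and its relative Lefty2 3.93-fold, so these 3 fell below their day 5 signal only at day 8. Between MPA and control, 2 of 11 were 2-fold lower at day 6 (Gsc and Lefty1) and 0 of 6 were 2-fold apart at day 8.

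Of the other definitive endoderm genes, 8 of 15 were 2-fold lower and 3 2-fold higher at day 8 against day 5 in the controls. Hhex, a homeobox gene of anterior endoderm, was 9.24-fold lower, Otx2, a homeobox gene of the anterior embryo, at least 49.97-fold and Trh at least 51.7-fold, alongside Foxa2. With MPA the median of the group was 0.32 at day 6, with 1 of 15 2-fold higher (Dkk1, a Wnt inhibitor gene, 4.82-fold) and 0 lower. At day 8 it was 0.67, with 2 of 13 2-fold higher and 1 lower. The lower one was Cxcr4, a chemokine receptor gene used as a marker of definitive endoderm. At day 6 it was 1.32-fold higher with MPA. At day 8 its signal was 70.7 with MPA and 457 in the control, a difference of at least 5.27-fold. The higher ones were the epithelial keratin gene Krt19 and the gut hormone gene Pyy, 3.78-fold. Other epithelial genes of the group, the keratin genes Krt8 and Krt18 and the junction genes Epcam and Cdh1, were 1.63-fold to 1.85-fold higher. Of the 13 genes, 12 were above the control with MPA and 1 below. Otx2 and Trh were below the floor on both arrays of day 8.

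Relatives and cofactors of the factors were mostly dim. Gata5 reached a signal of 146 and Sox18, the third gene of the Sox17 family, was below the floor on all 5 arrays. Of 9 measured at each day, 0 were 2-fold apart with MPA at day 6, and 2 were 2-fold higher at day 8. These were Onecut2, 2.41-fold, and Prox1, 2.10-fold, both of liver and pancreas progenitors. The median was -0.16 at day 6 and 0.21 at day 8.

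Liver and yolk sac genes, most of them for secreted proteins and many known targets of Foxa and Hnf4a, were read as a further group. Their median log2 difference with MPA was 0.04 at day 6 and -0.07 at day 8. At day 6, 3 of 14 were 2-fold higher and 1 lower, and at day 8 0 of 11 were 2-fold apart. Ttr, of transthyretin, had 2415 with MPA and 342 in the control at day 6, 7.06-fold higher, and 1742 with MPA and 1234 in the control at day 8, 1.41-fold higher. Rbp4, of the retinol carrier, was 3.004-fold higher at day 6 and 1.05-fold lower at day 8. Alb had no signal above the floor after day 5 and Afp only in the day 8 control, at 119.8. Primitive endoderm and basement membrane genes had medians of 0.07 at day 6 (0 of 13 2-fold higher, 1 lower) and 0.29 at day 8 (1 of 13 higher, 2 lower). In the controls 6 of 13 were 2-fold higher and 1 2-fold lower at day 8 than at day 5, among them the collagen IV gene Col4a2, 10.98-fold.

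Of 12 measured pancreatic and endocrine progenitor genes, 5 were 2-fold higher with MPA at day 8 and 0 lower (median 0.52). At day 6 it was 1 of 6 higher and 1 lower. Neurog3, the inducer of endocrine cells, had 1295 with MPA and 193 in the control at day 8, 6.71-fold higher. Isl1 was 5.27-fold, Neurod1 3.38-fold and the progenitor gene Sox9 2.43-fold higher. At day 6 Isl1 was the lower one, by 2.17-fold. The acinar and progenitor factor gene Ptf1a went the other way, with 2.73 with MPA and 130 in the control, a log2 difference of -0.59 against the floor. Pdx1, Nkx6-1, Nkx6-2 and Cpa1 had their control array below the floor and bounds of at least 1.04-fold to 1.49-fold higher. Of the gut tube genes 3 of 7 were 2-fold higher with MPA at day 8 and 0 lower. They were Gcg, of proglucagon, 9.49-fold, the brush border gene Vil1, 3.26-fold, and Shh, at least 2.62-fold, and at day 6 Cdx2 was the 1 of 7 that was 2-fold higher, at least 2.63-fold.

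**Figure D5:**
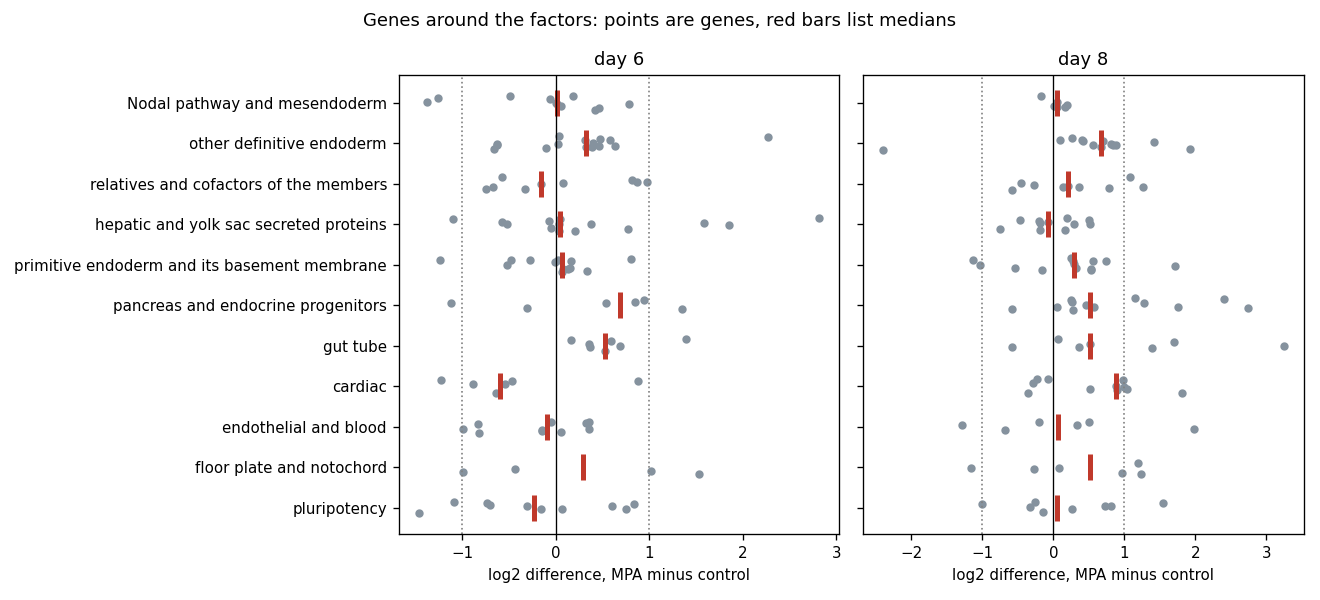
Log2 difference of MPA minus control at day 6 (left) and day 8 (right) for the genes of 11 groups around the factors; each point is a measured gene (vertical scatter carries no value), red bars are medians and dotted lines mark 2-fold. At day 8 the medians of the pancreas (0.52), gut tube (0.52) and definitive endoderm (0.67) groups lie above 0, the last with epithelial keratin and junction genes in it. The medians of the cardiac (0.89) and floor plate (0.52) groups also lie above 0.

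Several of the factors are also made by cells outside the endoderm, so markers of those cells were read on the same arrays. Cardiac genes, whose cells use Gata4 and Gata6, had a summed signal of 593 with MPA and 993 in the control at day 6, and of 8629 with MPA and 3676 in the control at day 8. At day 8, 2 of 11 were 2-fold higher with MPA and 0 lower (median 0.89), with Actc1 3.53-fold higher. At day 6 it was 0 of 6 higher and 1 lower (median -0.59), and Tnnt2 was below the floor on all 5 arrays. Gata6 was higher with MPA beside them at day 8, and their part in its difference was not tested.

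Floor plate and notochord genes, whose cells use Foxa2 and Foxa1, summed to 1167 with MPA and 1057 in the control at day 6, and to 3462 with MPA and 1801 in the control at day 8. Of the measured ones 2 of 4 were 2-fold higher and 0 lower at day 6, and 2 of 6 higher and 1 lower at day 8 (medians 0.29 and 0.52). Spon1, a floor plate gene, was 2.34-fold and Ntn1 2.29-fold higher with MPA at day 8, and Lmx1b at least 2.24-fold lower. These 2 higher genes gave most of the day 8 sum with MPA, at 1297 and 1704. At day 6 Spon1 was 1.35-fold and Ntn1 1.99-fold lower with MPA, while Nkx2-9 was 2.89-fold and Lmx1b 2.02-fold higher. Foxj1 and Lmx1a were below the floor on every array. The part of these cells in the Foxa2 difference was not tested.

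Endothelial and blood genes, whose cells use Sox17 and Sox7, summed to 4425 with MPA and 5142 in the control at day 6, and to 1863 with MPA and 1644 in the control at day 8. The receptor gene Flt1 gave most of the sums of day 6, with 3126 with MPA and 3468 in the control, and had 663 with MPA and 467 in the control at day 8. Egfl7 was also above the floor on all 5 arrays and the receptor gene Kdr on 4 of them. Of the 16 genes, 4 were never above it: Pecam1, Tek, Tie1 and Emcn, all markers of endothelium. Cdh5 was above it only in the day 6 control, at 95.8. At day 6 0 of 10 genes were 2-fold apart with MPA, and at day 8 Runx1 was 2-fold higher and Egfl7 2-fold lower, of 6 measured (medians -0.10 and 0.07). At day 8, 3 of the 6 measured genes were above the control with MPA and 3 below it. Runx1 was 3.96-fold and Flt1 1.42-fold higher, while Egfl7 was 2.45-fold and Kdr at least 1.60-fold lower. Egfl7 was also 1.99-fold lower with MPA at day 6, where Sox17 was higher. The part of these cells in the Sox17 difference was not tested. Pluripotency genes had medians of -0.24 at day 6, with 0 of 10 2-fold higher and 2 lower (Nanog and Sox2), and of 0.06 at day 8, with 1 of 8 higher (Klf4) and 0 lower.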

How the data were processed

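Biotinylated cRNA of total RNA was hybridised to an Affymetrix mouse array, 1 per sample, per the labels' protocols. The authors deposited 1 linear signal intensity per probe set, made with MAS5 per the submitters' processing notes; no version or filter is stated. The values have a trimmed mean (2% at each end) of 500.0 on each array. Groups, days and dose come from the labels. Of 45101 probe sets, 64 are controls, 34945 have 1 symbol, 932 several and 9160 none; only those with 1 symbol were used.

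Signals were raised to the floor (86.8, the 50th percentile) and taken to log2. A gene was measured in a pair if 1 array lay above the floor, and counted as apart at 2-fold. The limma fit (limma 3.58.1, R 4.3.3; trend and robust) took genes that exceeded the floor on 2 or more of 4 arrays and was tested on simulated data. The rest was done in Python 3.11.15 (numpy 2.4.6, pandas 2.3.3).

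The members and the 11 lists (158 genes, 151 on the array) were chosen with earlier results of these data known. Printed besides the members are up to 3 genes of each list by size of the mean MPA difference. Up to 3 are printed by size of the control difference of day 8 against 5, with the 3 nearest profiles per bright member. Dim markers, Pdx1, Ptf1a, Smad2, Lefty2, Kdr, Krt19, Sox18, Alb, Afp and the like were named after their values were seen. So were Isl1, Lmx1b, Epcam, Cdh1, Krt8 and Krt18. Alternatives were quantile normalization, median centring, a floor at the 25th or the 75th percentile, adding the floor to the signal in place of raising to it, averaging a gene's probe sets, leaving out _s_at, _x_at and _a_at sets, and, for limma, day as a straight line, no day term, plain eBayes and no filter.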

Additional observations from a re-analysis of the deposited data

Results flagged for a closer look

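In 3 of the 8 genes the difference between MPA and control had opposite signs at day 6 and day 8. The share of all genes with opposite signs was not counted, so the 3 cannot be read as a trait of the set. This change between the days was not tested. For Sox17 the log2 difference was 1.16 at day 6 and -1.68 at day 8, a change of -2.83, and both of its probe sets showed it. For Gata4 it was -0.24 at day 6 and 0.64 at day 8, a change of 0.88, and for Sox7 0.10 at day 6 and -0.27 at day 8, a change of -0.36. Signals of Gata4 and Sox7 lay around the floor.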

How the results depend on the processing

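No paired analysis was possible because each group has 1 array, so that no replicate number pairs any samples; the limma fit does hold a term for day and sets MPA against control within each day. With 1 array per group, no alternative measures the spread between cultures, and signals near the floor limit what can be said of Foxa3, Sox7, Gata4 and Hnf4a. Over the alternatives, Foxa1 had a log2 difference between MPA and control of 0.51 to 0.62 at day 6 and 1.13 to 1.18 at day 8, Foxa2 one of 0.62 to 0.70 and 0.92 to 0.97, and Sox17 one of 0.95 to 1.19 and -1.74 to -1.52. For Foxa1 and Foxa2, each with 1 plain probe set well above any floor, only quantile normalization, median centring and log2(signal + floor) could move these values, while the other 4 alternatives return the main value by construction. Gata6 had -0.08 to 0.21 at day 6, below 0 with the mean over probe sets, and 0.50 to 0.71 at day 8. The number of genes 2-fold apart with MPA at day 6 was 0 of 8 when probe sets were averaged (4.10% of all measured genes). It was 0 of 6 without _s_at, _x_at and _a_at probe sets (7.30% of all), which leaves no probe set of Sox17 or Foxa3. Without those sets it was 1 of 6 at day 8 (7.15% of all). It was then 1 of 6 for day 8 against day 6 with MPA (15.0% of all) and 0 of 6 in the controls (13.7% of all). In the controls, the floor at the 25th percentile gave 4 for day 6 against day 5 (31.9% of all measured genes). It gave 3 for day 8 against day 6 (34.7% of all) and 5 for day 8 against day 5 (37.4% of all). With MPA at day 8 that floor gave 3 (28.8% of all), 2 higher and 1 lower. The added gene was Foxa3, whose log2 difference became 2.56 there, against 0.003 with the main floor. The setting log2(signal + floor) gave 2 for day 8 against day 6 in the controls (14.5% of all). The floor at the 25th percentile calls 28.5% of all measured genes 2-fold apart with MPA at day 6. Of 282 single-gene values, 273 stayed on their side of 2-fold, 7 passed it and 2 no longer did. Of these values 0 turned round past it. A change of sign under 2-fold counts as staying, and genes not measured under a setting are left out. Many of the 273 could not move by construction. In limma, 0 of the genes tested had an adjusted p under 0.05 under each of the 11 alternatives. Of the 8 genes, 4 were tested with the floor at the 75th percentile and 6 without _s_at, _x_at and _a_at sets. Each alternative called only 0 or 1 of all genes, so a count of 0 here says little about these genes. The adjusted p of Foxa1 ran from 0.44 to 1 and that of Foxa2 from 0.51 to 1, and both had an unadjusted limma p under 0.05 in 9 of 12 fits. Median centring turned the split of all genes 2-fold apart with MPA at day 6 to 388 higher and 500 lower, against 492 and 385.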
